A study of Mus musculus with 39 samples.

Results

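Cluster 5 was the group of consensus peaks from embryonic mouse cortex that carried the number 5 in the authors' k-means clustering. It held 4678 of the 20811 consensus peaks, or 22.5% of them, and all of its peaks lay on nuclear chromosomes. Its members were clustered by the authors on measured NOTCH and RBPJ binding, so the peak lists behind each member are given below as a description and not as a finding. The peaks were made by Targeted DamID (TaDa), in which the bacterial methylase Dam is joined to a DNA-binding protein and marks the GATC sites around its binding places with methyl groups. All embryos were wild-type MF1 mice, electroporated in utero at E13.5 and dissected 24 h later, at E14.5. The fusions were expressed from plasmids, under a Hes5 promoter fragment for radial glia (RGCs) or a Tα1 (Tuba1a) promoter fragment for intermediate progenitors (IPCs), so a cell type here means the cells in which that fragment was active. The human RBPJ protein was fused in 3 RGC samples and 3 IPC samples. NOTCH was fused in 4 RGC samples, 2 with the intracellular domain (NICD) and 2 with the membrane-tethered form NΔECD, and in 4 IPC samples, all with NICD. Controls with Dam alone numbered 5 in RGCs and 4 in IPCs, and within each cell type the same controls served both proteins.

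The series holds 39 samples, of which 14 of the fusions lie behind the 4 pooled peak lists. The files used here give positions only, with no peak height, no value of a single sample and no expression, so depth, the spread between replicates and the identity of the cells by marker genes could not be examined. No test was made for that reason. Intervals are 95% intervals that cover counting error over peaks only, and neighbouring peaks are not independent of each other.

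NOTCH is a receptor that is cut when a neighbouring cell presents a ligand such as Delta or Jagged. The freed NICD enters the nucleus and joins RBPJ, which binds DNA, and Mastermind, which recruits activators, and genes such as Hes1 and Hes5 are switched on. Without NICD, RBPJ can bind corepressors such as SPEN in its place. In the cortex the pathway is known for holding RGCs in a progenitor state. RBPJ recognises a core that contains TTCCCA, and the longer word TTCCCAC is close to its full consensus. A pair of such words facing each other at a set spacing is known to allow paired binding.

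Cluster 5 peaks nearest to genes of the Notch pathway or of radial glia were searched for TTCCCAC. The word had to stand in a window of 81 bases that lay within the peak and outside all annotated exons. Among the genes searched, 18 had such a peak. The search left out part of the genome, so this count does not cover every gene of these lists. The 8 peaks of this kind closest to a start site, 1 per gene, are shown as examples of the word in peaks near known genes. Anywhere in the peak, TTCCCAC was held by 48.0% of cluster 5 peaks and 41.2% of all consensus peaks. Each window is 81 bases of mm10 (GRCm38), read 5′ to 3′ on the strand that spells the word, which is in capitals.
Pdpn, chr4:143295461-143295541, plus strand: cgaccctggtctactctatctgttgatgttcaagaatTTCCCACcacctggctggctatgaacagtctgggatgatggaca
Prdm16, chr4:154527786-154527866, plus strand: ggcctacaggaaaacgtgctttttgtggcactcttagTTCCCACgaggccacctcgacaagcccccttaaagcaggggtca
Spen, chr4:141545112-141545192, plus strand: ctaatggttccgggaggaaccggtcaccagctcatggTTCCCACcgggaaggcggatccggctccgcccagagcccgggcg
Notch2, chr3:98020118-98020198, minus strand: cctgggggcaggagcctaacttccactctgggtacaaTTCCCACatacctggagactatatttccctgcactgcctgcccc
Dlk1, chr12:109445793-109445873, minus strand: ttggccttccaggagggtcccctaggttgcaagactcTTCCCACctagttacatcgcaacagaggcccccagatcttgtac
Notch1, chr2:26491282-26491362, plus strand: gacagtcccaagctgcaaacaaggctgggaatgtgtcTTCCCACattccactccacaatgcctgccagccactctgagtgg
Slc1a3, chr15:8629493-8629573, minus strand: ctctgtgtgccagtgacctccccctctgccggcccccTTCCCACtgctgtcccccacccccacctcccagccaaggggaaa
Nrarp, chr2:25162902-25162982, plus strand: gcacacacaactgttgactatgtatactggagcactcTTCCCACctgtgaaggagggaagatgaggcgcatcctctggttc

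The word in the Prdm16 peak stood 0.942 kb from a start site of the gene, and those in the Spen, Notch2 and Dlk1 peaks stood 6.55, 6.62 and 6.99 kb away. In the Notch1 peak it stood inside the gene, 12.5 kb from the nearest of its start sites. In the Nrarp peak it stood 17.8 kb from the start, in sequence outside protein-coding genes. The printed words thus lay in introns or outside protein-coding genes, and a match of letters is a description, not a bound site.

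Facing words, TGGGAA followed by TTCCCA with 14 to 18 bases between them, occurred 24 times in the cluster. Those below, at peaks on a start site, are shown as examples of words in this arrangement. Paired binding of RBPJ at them was not tested. Both words are in capitals and the plus strand is printed.
Bcar3, chr3:122479431-122479498, 16 bases between: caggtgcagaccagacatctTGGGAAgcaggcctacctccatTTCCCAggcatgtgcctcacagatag
Cenpo, chr12:4232586-4232655, 18 bases between: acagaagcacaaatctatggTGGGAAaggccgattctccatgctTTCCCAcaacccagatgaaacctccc
Dnajc27, chr12:4083550-4083616, 15 bases between: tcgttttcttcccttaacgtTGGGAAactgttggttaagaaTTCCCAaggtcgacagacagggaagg
Mid2, chrX:140665635-140665700, 14 bases between: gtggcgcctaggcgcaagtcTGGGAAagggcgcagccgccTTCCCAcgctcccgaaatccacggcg

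Peaks of cluster 5 came almost entirely from the RBPJ list of RGCs. An RGC RBPJ peak overlapped 4564 members, or 97.6% (97.1 to 98.0%), against 67.6% of all consensus peaks. An RGC NOTCH peak overlapped 274 members, or 5.86%, against 17.7% of all. In IPCs, an RBPJ peak overlapped 244 members, or 5.22%, against 26.2% of all, and a NOTCH peak 58 members, or 1.24%, against 10.1% of all. RGC RBPJ and no other list was called at 4141 members, or 88.5% (87.6 to 89.4%), whereas 52.1% of all consensus peaks had that pattern. These shares follow from the clustering and the label of the cluster as RBPJ in RGCs describes them. RGC RBPJ peaks covered 96.0% of the 11.9 Mb of cluster 5 sequence, RGC NOTCH peaks 7.30%, IPC RBPJ peaks 2.74% and IPC NOTCH peaks 0.610%.

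**Figure D1:**
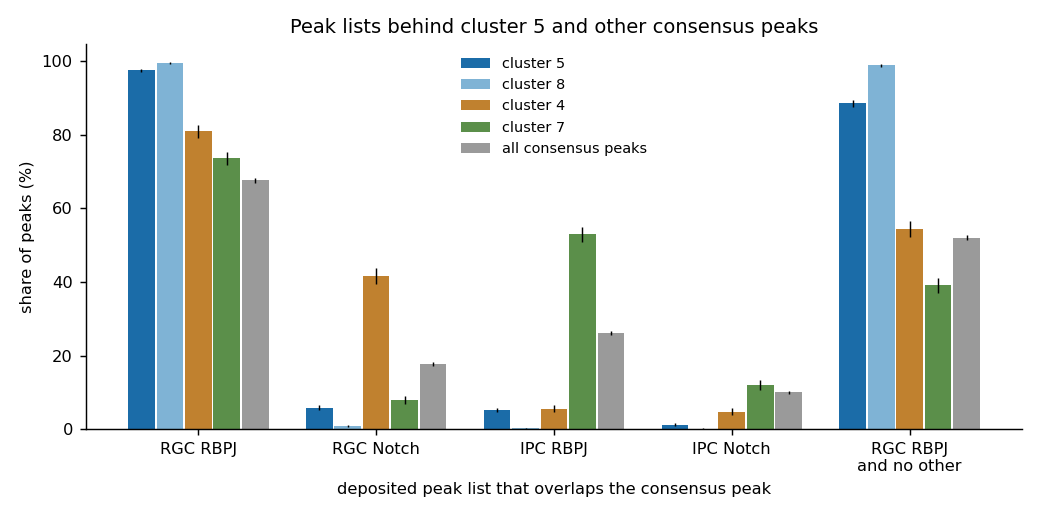
Share of consensus peaks (y axis, %) that overlap each deposited peak list by at least 1 bp (x axis), for cluster 5, clusters 8, 4 and 7 and all consensus peaks; bars are shares and lines are Wilson 95% intervals. Cluster 5 stands at 97.6% for RGC RBPJ and at 5.86% or less for the other lists.

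Clusters 4, 7 and 8 also drew mainly on the RGC RBPJ list and were set beside cluster 5. Cluster 8, with 3004 peaks, had RGC RBPJ and no other list at 98.8% of its peaks. Cluster 4, with 2038 peaks, had an RGC NOTCH peak at 41.7%, and cluster 7, with 2289 peaks, an IPC RBPJ peak at 52.9%. Cluster 5 lay between cluster 8 and these in how often a second list was called.

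Within cluster 5, 399 members (8.53%) were called in 2 lists, 30 (0.641%) in 3 lists and 1 (0.0214%) in all 4. Over all consensus peaks the shares were higher, at 13.2, 3.20 and 0.678%. The most frequent partners were IPC RBPJ, beside RGC RBPJ at 178 members, and RGC NOTCH, beside RGC RBPJ at 177. Both kinds were wide, with medians of 3823 and 3861 bp against 2156 bp for members called for RGC RBPJ only. With members of 3 or 4 lists included, both RBPJ lists were called at 4.32% of members and 6.85% of all consensus peaks. Both RGC lists were called at 4.34% of members and 7.77% of all consensus peaks. A consensus peak is the merged span of the overlapping peaks, so width and the number of lists move together, and the part of width in these overlaps was not tested. Members with RGC RBPJ and RGC NOTCH covered a start site in 36.2% of cases, members with both RBPJ lists in 32.6%, and members with RGC RBPJ only in 18.4%.

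The members named next were chosen after their values were seen. The one called in all 4 lists was chr4:83300637-83303960, 15.5 kb from the nearest start site, that of Ttc39b. Those in 3 lists included chr3:127639557-127646651, 6.42 kb downstream of the start of Neurog2, a proneural factor that drives neuron production. Another, of 10130 bp, lay 7.29 kb from a start site of Fgfr2, a fibroblast growth factor receptor. RGC RBPJ, RGC NOTCH and IPC RBPJ were called at the first, and RGC RBPJ and both NOTCH lists at the second.

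An RGC RBPJ peak was absent at 114 members, or 2.44% (2.03 to 2.92%), against 32.4% of all consensus peaks. RGC NOTCH alone was called at 64 of them, IPC RBPJ alone at 39 and IPC NOTCH alone at 4. Of the 114, 35 covered a start site, or 30.7% (23.0 to 39.7%), against 16.6% of all consensus peaks. Peaks with RGC NOTCH alone at start sites included those of Satb1, a chromatin organiser, and Fas, a death receptor. IPC RBPJ alone was called at a start site of Runx1, a transcription factor of blood development. These 3 genes were chosen after their values were seen.

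Cluster 5 peaks were wide, with a median of 2278.5 bp (2234 to 2341) and quartiles of 1418 and 3362 bp. The median was 1890 bp over all consensus peaks, 1641 bp in cluster 8, 1905.5 bp in cluster 4 and 2010 bp in cluster 7. In all, 335 members spanned at least 5 kb, or 7.16%, against 5.19% of all consensus peaks. The share was nearly the same in cluster 7, at 7.12%, and was 5.50% in cluster 4 and 1.30% in cluster 8. The widest was chr4:154520599-154534720, of 14122 bp, over a start site of Prdm16, a zinc finger regulator expressed in RGCs. The next widest, of 12207 bp, lay in an intron of the same gene, 34.3 kb upstream of the closest of its start sites. The one on the start site was called for RGC RBPJ and RGC NOTCH, the other for RGC RBPJ alone.

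Distances were taken from the peak edge to the closest protein-coding start site. The median was 17474 bp (16125 to 18684) in cluster 5, with quartiles of 1229 and 72644 bp. It was 21051 bp over all consensus peaks, 16036 bp in cluster 4, 8577 bp in cluster 7 and 43202 bp in cluster 8. Measured to the nearest start site of any annotated gene, the median was 7575 bp in cluster 5, 8654 bp over all consensus peaks and 15770 bp in cluster 8. Cluster 5 and cluster 8 thus had nearly the same source list and different positions, with the peaks of cluster 8 farther from genes.

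A start site lay under 933 cluster 5 peaks, or 19.9% (18.8 to 21.1%). The share was 16.6% over all consensus peaks, 22.9% in cluster 4, 29.7% in cluster 7 and 3.86% in cluster 8. With the start site required in the central 500 bp, which gives peaks of every width the same window, it was 6.52% (5.85 to 7.26%) in cluster 5 and 6.27% (5.95 to 6.60%) over all consensus peaks. Clusters 4, 7 and 8 then had 9.52, 12.5 and 1.27%, so cluster 5 no longer stood apart from all peaks and still stood above cluster 8. A further 627 members (13.4%) lay within 5 kb and 1662 (35.5%) at 5 to 50 kb. At the far end, 272 members lay over 300 kb away, or 5.81% (5.18 to 6.52%), against 16.1% in cluster 8 and 7.59% of all. Most cluster 5 peaks were therefore away from start sites, and most of those lay within 50 kb.

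**Figure D2:**
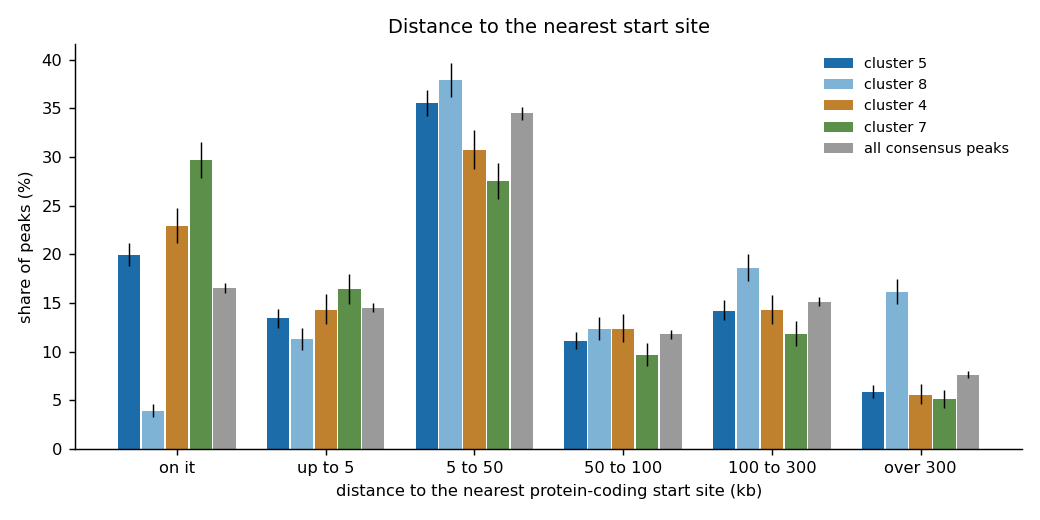
Share of consensus peaks (y axis, %) by distance from the peak edge to the nearest protein-coding start site (x axis, kb), for cluster 5, clusters 8, 4 and 7 and all consensus peaks; bars are shares and lines are Wilson 95% intervals. Cluster 5 has 19.9% of its peaks on a start site and cluster 8 has 3.86%, while over 300 kb the shares are 5.81% and 16.1%.

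By midpoint, 2241 members lay in introns of protein-coding genes, or 47.9% (46.5 to 49.3%), and 380 in exons (8.12%). Sequence within 5 kb upstream of a start site, which can also be an intron, held 865 (18.5%), and 1733 (37.0%) were intergenic. Over all consensus peaks the intron share was 47.3%, the exon share 8.06%, the upstream share 16.6% and the intergenic share 38.7%. Of cluster 8, 52.0% was intergenic. Away from start sites, 2024 members (43.3%) lay downstream of the nearest start and 1721 (36.8%) upstream. Over all consensus peaks the shares were 45.4% and 38.0%. The farthest member, 2142.8 kb from the nearest start site, that of Olfm4, had 29.0% GC.

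Members on start sites differed from the others in size and base composition. Their median width was 3018 bp, against 2088 bp for the 2289 members up to 50 kb away and 2141.5 bp for the 1456 beyond. A wide peak covers a start site more often by its length alone, and that part was not tested. Median GC content was 50.9% on start sites, 45.6% up to 50 kb away and 43.7% beyond. CpG dinucleotides stood at 0.474, 0.227 and 0.208 of the number that the base composition gives, as medians. TTCCCA was no denser on start sites, with 1.17 words per kb (1.13 to 1.21), 1.28 up to 50 kb away (1.25 to 1.31) and 1.23 beyond (1.20 to 1.27).

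The nearest start site linked cluster 5 to 3387 of 21938 protein-coding genes, or 15.4% of them. Nearest is a rule of position, and no file here shows which gene a peak acts on. Of these genes, 2605 had 1 member, 483 had 2, 259 had 3 or 4, and 40 had 5 or more. The 15 genes with the most members held 117 of them, or 2.50%. Genes with wide surroundings collected more. The span of chromosome closer to a gene's start sites than to any other's had a median of 144 kb for genes with a member and 38.7 kb for genes without one, and it was 899 kb for the 15. The share of genes with a member was 4.17% where that span was under 20 kb and 54.3% where it was 1 Mb or more.

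Auts2, a nuclear protein studied in cortical neuron development, Magi1, a scaffold of cell junctions, and Zfp608, a zinc finger protein, had 10 members each. The Auts2 members were 10 of its 47 consensus peaks, lay 1.60 to 612 kb from its start sites, and none covered one. Of the 25 peaks of Magi1, 10 were members, including one on a start site at chr6:93913228-93917064 and one called in 3 lists at chr6:94073089-94080922. The Zfp608 members were 10 of 37 and lay on both sides of the gene, 45.7 to 688 kb away. Peaks of other clusters outnumbered the members at all 3 genes.

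Pde4d, a cAMP phosphodiesterase, had 9 members of 21 peaks, 4 of them on its alternative start sites. Dab1, the adaptor of Reelin signalling, had 8 of 27, Sox6, a SoxD factor, 8 of 30, and Tmem182 8 of 28, all 8 downstream of the gene. Tle3, a Groucho corepressor that partners HES proteins, had 7 of 25, Zfp516 7 of 19, Epha4, an ephrin receptor, 6 of 39, Foxp1, a forkhead repressor, 6 of 25, and Gm11146 6 of 20.

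At 3 of the 15 genes, members made up more than 50% of the peaks. Nfia, a nuclear factor of gliogenesis, had 8 members of 15 peaks, all in its introns, from 20.6 kb upstream to 190 kb downstream of the nearest start sites. One of them, chr4:97856189-97859520, was also called for RBPJ in IPCs and the other 7 were not. Kit, a receptor tyrosine kinase, had 7 of 8, with one on a start site at chr5:75640571-75642615 and one, chr5:75699236-75701583, called for IPC RBPJ alone. Brms1l, a subunit of a histone deacetylase complex, had 7 of 9, and 6 of the 7 lay 40.7 to 160 kb downstream in intergenic sequence. Members per Mb of surrounding span were 22.2 at Nfia, 15.7 at Kit and 26.3 at Brms1l, against 1.72 over the nuclear chromosomes. These genes were picked for their counts of members, so values above 1.72 follow from the choice and are a description only. Some genes outside the 15 were denser, such as Ahnak with 47.6.

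**Figure D3:**
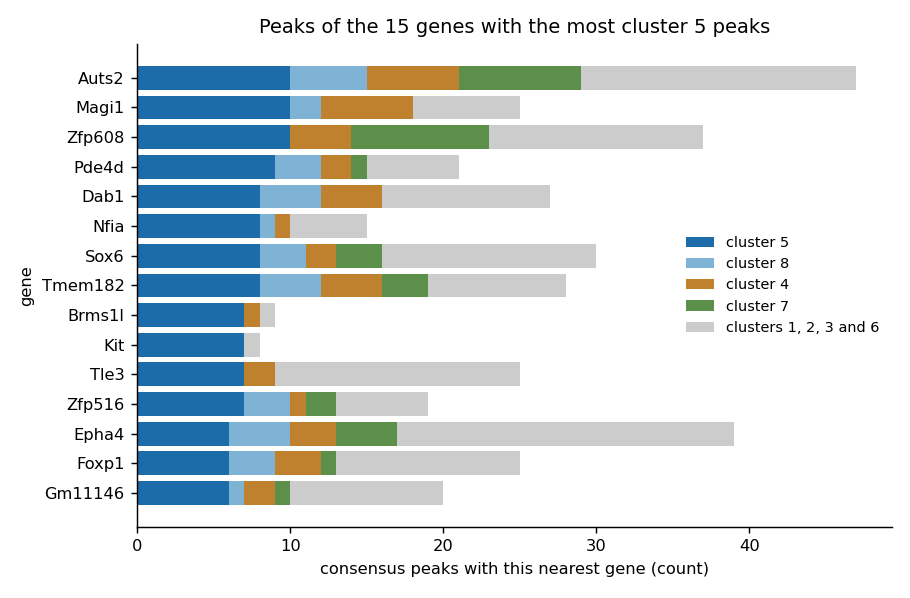
Number of consensus peaks (x axis) whose nearest protein-coding start site is that of each of the 15 genes with the most cluster 5 peaks (y axis), coloured by cluster. Kit, Brms1l and Nfia consist mostly of cluster 5 peaks (7 of 8, 7 of 9 and 8 of 15), while Epha4 and Auts2 have 6 of 39 and 10 of 47.

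**Figure D4:**
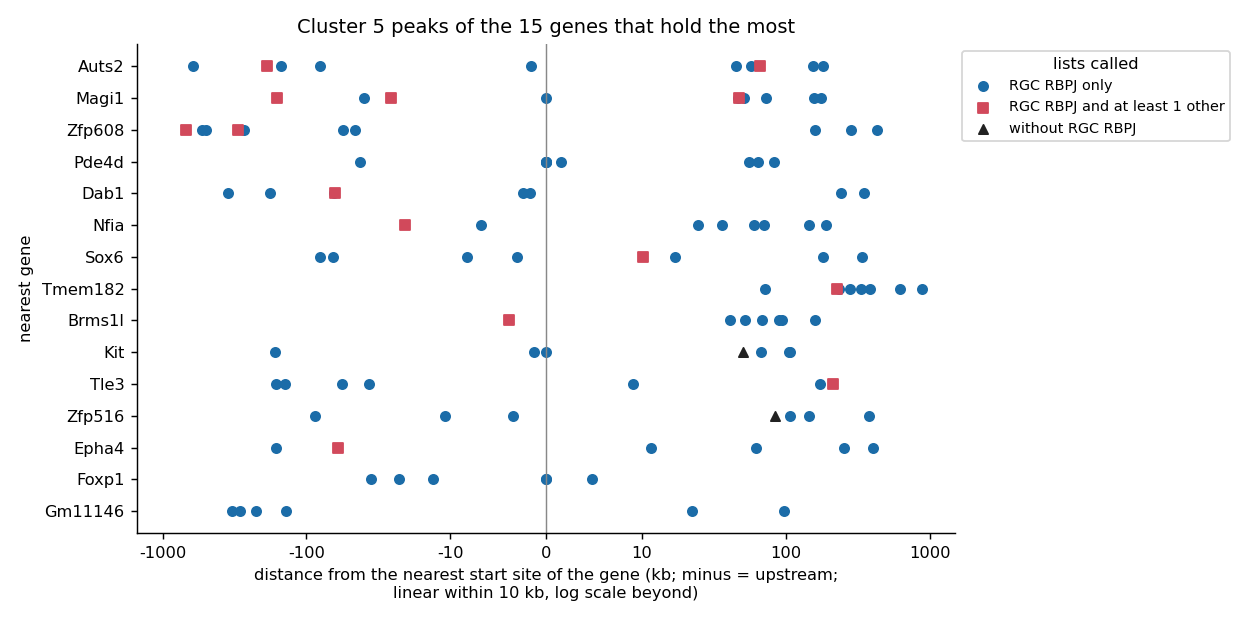
Position of each cluster 5 peak of the same 15 genes (y axis) as the distance from the peak edge to the closest start site of that gene (x axis, kb, minus for upstream, linear within 10 kb and logarithmic beyond); points are peaks, and colour and shape give the lists called. The Tmem182 peaks all lie downstream, Pde4d has 4 and Foxp1 has 2 on a start site, and 1 peak each of Kit and Zfp516 was called without RGC RBPJ.

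Of the 8492 genes with any consensus peak, 3387 had a member, and cluster 5 alone supplied every peak of 1319. All but 15 of the 1319 had fewer than 3 peaks, and the part of that in the count was not tested. The 15 with 3 or more are named here, after their values were seen. Dlk1 had 5, Bcas3 and Slc1a4, a neutral amino acid transporter, had 4, and the others had 3: 4930452B06Rik, Ahnak, Cfap53, Jade1, Kmt2a, Lrrc8c, Naa35, Pax3, Pom121l12, Sap30l, Tfpi and Trmt10b. The Kmt2a members, at a gene for a histone methyltransferase, lay within 2.78 kb of its start sites. Pax3, a transcription factor of the dorsal neural tube, had a member of 8510 bp with 15 TTCCCA words over its start, chr1:78188919-78197428, called for RBPJ in both cell types.

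The gene lists below are set against the 15.4% of all protein-coding genes with a member and the 22.5% of all consensus peaks in cluster 5. Among the ligands of the Notch pathway, 1 of 7 genes had a member, or 14.3%, near the share of all genes, with 5 of the 13 peaks of the list (38.5%), all at 1 gene. That gene was Dlk1, an imprinted Delta-like protein that lacks the domain by which Delta binds NOTCH. Its 5 peaks were 1538, 5962, 5755, 1827 and 3633 bp wide along chr12:109342410-109529923 and all 5 were called for RGC RBPJ only. They held 0, 11, 5, 1 and 7 TTCCCA words in that order. The last, chr12:109526291-109529923, lay between Dlk1 and the imprinted non-coding gene Meg3, ending 11.1 kb before the start of Meg3. Dll1, Dll3, Dll4 and Jag1 had 3, 1, 1 and 3 consensus peaks in other clusters.

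Among the receptors, 2 of 4 had a member, but members were only 2 of their 22 peaks, or 9.09%, below the share of cluster 5 in all peaks. The Notch1 peak, chr2:26489521-26494383, lay in an intron 9.44 kb downstream of the nearest start, held 8 TTCCCA words and was called for RGC RBPJ and IPC NOTCH. It was 1 of 12 peaks of the gene. The Notch2 peak, chr3:98016399-98020984, lay in an intron 2.86 kb downstream, held 6 words and was called for RGC RBPJ only. None of the 14 genes of receptor glycosylation and cleavage had a member, where 15.4% of all genes did, and 8 of them had a peak of another cluster, 9 peaks in all. The span around these genes was short, with a median of 33.2 kb.

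Of 17 nuclear partners of the pathway, 4 had members, or 23.5%, against 15.4% of all genes, while members were 8 of their 50 peaks, or 16.0%, against 22.5%. Maml2 and Maml3, Mastermind coactivators, had 3 of 5 and 2 of 12 peaks, all intronic. Spen, the corepressor of RBPJ, had 2 of 6, one of them 1.51 kb upstream of a start and called for RBPJ in both cell types. Ctbp2, another corepressor, had 1 of 9, on a start site. Rbpj itself had 3 peaks, all in cluster 7. Of 12 genes of ubiquitin ligation and endocytosis, only 1 (8.33%) had members. It was Fbxw7, which marks NICD for degradation, with 2 of 6 peaks, at 130 and 271 kb downstream, among 11 peaks of the list.

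Of 10 target genes, 3 had a member, against 15.4% of all genes, and members were 5 of their 32 peaks, or 15.6%, below the 22.5% of all peaks. Hes1 had 3 of 12 peaks, at 60.1, 69.3 and 219 kb upstream. The farthest, chr16:29836853-29845530, was 8678 bp wide and held 13 TTCCCA words, of which 4 extended to TTCCCAC. All 3 were called for RGC RBPJ only, and 6 of the other peaks of Hes1 were in cluster 6. Nrarp, a feedback inhibitor that binds NICD, had 1 of 3, chr2:25161057-25164662, 16.1 kb upstream, with 8 words of which 5 were TTCCCAC. Heyl, a HES-related repressor, had 1 of 2, 1.46 kb downstream of a start. Hes5 had none of its 3 peaks in cluster 5 and Nepro none of its 6. A fragment of the Hes5 promoter was also carried by the RGC plasmids.

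Of 22 radial glia genes, 15 had a member, with 34 members among their 198 peaks, or 17.2%, below the 22.5% that cluster 5 made up of all. The median span around these genes, 277 kb, was wider than the 144 kb of all genes with a member. Sox2, Sox9 and Id4 had 4 members each, of 23, 23 and 22 peaks, and none on a start site. The Sox9 members lay 188 to 373 kb away and the Sox2 members 28.0 to 217 kb away. Prdm16, Sox1 and Cdh2 had 3 each. Pdpn, a membrane glycoprotein, had its only peak in the cluster, chr4:143294456-143299543, on a start site. Pax6, the regulator of cortical progenitor identity, had 1 of 8, 18.9 kb upstream. Nes, Vim, Fabp7, Prom1, Lhx2, Emx1 and Tnc had none.

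Genes of cells derived from RGCs also had members. They were found at 4 of 9 IPC genes, against 15.4% of all genes, and made up 5 of 21 peaks there, or 23.8%, close to the 22.5% of all peaks. Among these genes was Eomes, the defining factor of IPCs, with 2 of 6 peaks, one 0.443 kb upstream of a start. They were found at 9 of 16 genes of cortical neurons, as 17 of 111 peaks or 15.3%, with Sox5 at 5 of 21, Cux1 at 3 of 6, and Tbr1, a deep-layer factor, at its 1 peak 2.95 kb upstream. Genes of ventral forebrain and interneurons, which mark cells outside the cortical RGC lineage, had members at 4 of 10, or 5 of their 17 peaks (29.4%), with 1 of the 2 Dlx2 members and the Gad1 member covering a start site. Of 6 endothelial and 6 microglial genes, 1 each had a member, Cdh5 and Csf1r. The lists differ in the span around their genes, from a median of 41.9 kb for microglia to 335 kb for cortical neurons, and its part in these counts was not tested.

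Cluster 5 peaks were spread along all chromosomes. They made up 19.9 to 25.7% of the consensus peaks of each autosome and 24.3% of those on X. Their density was 1.55 to 2.33 per Mb on autosomes and 0.579 per Mb on X, where all consensus peaks were also sparse, with 2.38 per Mb against 7.18 to 9.95. The single consensus peak on Y was a member.

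The gap from a member to the nearest other member had a median of 122243 bp (118090 to 130126) and quartiles of 44558 and 278352 bp. In all, 1272 members had another within 50 kb, or 27.2%, and 309 within 10 kb. The nearest consensus peak of any cluster lay at a median of 26563 bp and was itself in cluster 5 for 1090 members, or 23.3% (22.1 to 24.5%), while cluster 5 made up 22.5% of all consensus peaks. The share of neighbours within the cluster was thus close to the cluster's share of all peaks. In clusters 4, 7 and 8 it was 11.9, 13.9 and 21.1%, while these clusters made up 9.79, 11 and 14.4% of all peaks, and each value stood above the cluster's own share.

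When members up to 50 kb apart were linked, 3406 stood alone, or 72.8%, and 459 pairs formed. Groups of 3 or more numbered 108 and held 354 members, or 7.57%. The largest, named after its values were seen, had 6 members over chr11:85686630-85857676, at Bcas3, Gm11444 and Tbx2. Groups of 5 lay at Pitpnm3 and Aipl1, at Brms1l, at Tox2, and at Akr1b3 and Akr1b8. In the last, chr6:34257713-34346835, all 5 consensus peaks of an interval of 89.1 kb were members.

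The sequence of the peaks was not used to choose them. Median GC content was 45.9% (45.7 to 46.1), against 45.3% over all consensus peaks, 41.3% in cluster 8 and 48.4% in cluster 7. The genome stood at 41.7%. GATC sites, where Dam can leave a mark, had a median of 3.08 per kb (3.03 to 3.12), against 2.95 over all and 3.54 in cluster 8. Only 49 members (1.05%) held no GATC, against 9.76% of all consensus peaks. The share was also low in clusters 4, 7 and 8, at 2.01, 2.23 and 1.70%. Clusters 5 and 8 therefore shared their main source list and did not overlap in the intervals of their median GC content.

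TTCCCA was searched on both strands, as TTCCCA and TGGGAA. Cluster 5 held 14730 such words, or 1.24 per kb (1.22 to 1.26). The density was 1.17 over all consensus peaks, 1.07 in cluster 8, 1.17 in cluster 4, 1.33 in cluster 7 and 0.934 over the genome. In the central 500 bp, where DamID peaks of different width can be compared, 46.5% of members held the word (45.1 to 47.9%), against 44.5% of all consensus peaks and 37.0% of all 5294579 such tiles of the genome. For TTCCCAC the same shares were 14.1, 13.0 and 8.61%. In clusters 4, 7 and 8 the central share of TTCCCA was 45.3, 51.6 and 42.6%. Over the whole peak, 87.6% of members and 82.9% of all consensus peaks held TTCCCA. The word was therefore more frequent in the cluster than in the genome at large, as it was in all consensus peaks. Most members lacked it in the central 500 bp.

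The density of the word moved with GC content. In cluster 5 it was 0.983 per kb in peaks under 40% GC, 1.17 at 40 to 45%, 1.32 at 45 to 50%, 1.33 at 50 to 55% and 1.18 at 55% or more. Within the same ranges cluster 8 had 0.874, 1.13, 1.29 and 1.43, with 14 peaks in the last range. The intervals of clusters 5 and 8 overlapped at 40 to 45%, 45 to 50% and 50 to 55%, and did not below 40%, where cluster 5 had 0.925 to 1.04 and cluster 8 0.835 to 0.915. Of cluster 8, 39.5% was under 40% GC, and of cluster 5, 12.4%.

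**Figure D5:**
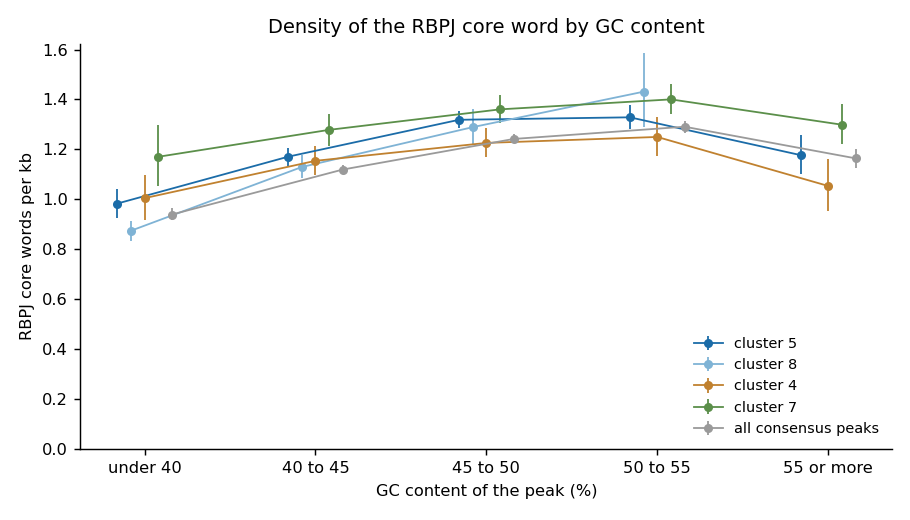
Density of the RBPJ core word on both strands (y axis, words per kb) in peaks grouped by GC content (x axis, %), for cluster 5, clusters 8, 4 and 7 and all consensus peaks; points are words over summed length, lines through them are exact Poisson 95% intervals, and points from under 20 peaks are left out. In cluster 5 the density runs from 0.983 under 40% GC to 1.33 at 50 to 55%.

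Facing pairs, like those printed above, had a density of 2.01 per Mb (1.29 to 3.00) in cluster 5 and 0.956 per Mb over the genome. Over all consensus peaks it was 1.83 (1.46 to 2.26), and in clusters 4, 7 and 8 it was 2.45, 2.36 and 2.38. All these intervals overlapped that of cluster 5. Pairs in the opposite arrangement, TTCCCA then TGGGAA at the same spacing, had 1.93 (1.22 to 2.90) in cluster 5. The genome had 1.01 and all consensus peaks 2.02. Words in tandem had 4.20 (3.12 to 5.53), against 3.35 over the genome and 3.83 over all consensus peaks. For facing and opposed pairs the genome value lay below the interval, for tandem words inside it, and the intervals of facing and opposed pairs overlapped.

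Words of other factor families were counted for comparison, each on both strands. CAGCTG, an E-box bound by bHLH factors, was in the central 500 bp of 23.3% of members, against 22.8% of all consensus peaks, 17.2% of cluster 8 and 16.8% of genome tiles. TAATTA, the homeobox word, was in 14.3%, against 15.9% of all peaks and 16.9% of tiles. ACAATG, a word of SOX factors, was in 24.3%, against 24.8% of all peaks and 28.8% of tiles. The palindromic word of NFI factors was in the central 500 bp of 5 members, or 0.107%, against 0.0625% of all consensus peaks. Over the whole peak it was in 18 members, or 0.385% (0.244 to 0.607%), against 0.264% (0.203 to 0.344%) of all consensus peaks. The whole-peak intervals overlapped. The words rich in A and T were thus less frequent than in the genome and the E-box more frequent, in sequence that was also richer in GC.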

How the data were processed

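The authors mapped TaDa libraries of NOTCH, RBPJ and Dam alone to mm10 and ran MACS2 in broad mode on each fusion sample against each control. Peaks that passed an FDR filter in all such comparisons formed the 4 pooled peak lists, which were deposited with 1 file of consensus peaks with a k-means cluster number. The values used here, as deposited in these files, are positions in bp; the files used hold no peak height, and depth per sample was not analysed here. There were 0 unmapped columns of single samples.

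Members were the consensus peaks with cluster number 5. The cluster, the comparison clusters 4, 7 and 8, the gene lists and the rules were chosen with earlier results of these data known. Overlap was counted from 1 bp, and overlap with the lists matched the list names in the cluster file at 20809 of 20809 nuclear peaks. The 2 mitochondrial consensus peaks, neither in cluster 5, were left out. Positions are counted from 1. Start sites, exons and introns came from GENCODE and sequence from GRCm38. Genes were assigned by the nearest protein-coding start site, with ties on a peak going to the site closest to its midpoint.

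Named genes were the 15 protein-coding genes with the most members, all genes of the lists with a member, and Hes1, Hes5, Nrarp and Nepro. Shares have Wilson intervals, medians order-statistic intervals and word densities exact Poisson intervals, at 95%. A TTCCCAC is also counted as TTCCCA. Analyses used Python 3.11.15 with scipy 1.17.1, pandas 2.3.3, matplotlib 3.10.9 and numpy 2.4.6. The searches were tested on simulated data and were right at 3000 of 3000 places, and 94.8 to 95.8% of intervals held the true value. Alternatives were autosomes only, peaks of at least 1000 bp, an overlap of 50% of the shorter peak, midpoints in place of edges, all annotated genes, genes within 100 kb, shares of peak bases, the central 500 bp and the longer word.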

Additional observations from a re-analysis of the deposited data

How the results depend on the processing

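Of 35 alternatives to the 11 summary values, 24 left the value within its interval, or a count within 1.5 times, and 11 did not. The overlap of 50% could not change its value, because consensus peaks were merged from whole peaks of the lists. With peaks of at least 1000 bp, the share called for RGC RBPJ only was 87.1%, the share on a start site 22.4%, the gap to the nearest member 141198 bp and GATC 3.01 per kb. With all annotated genes the median distance was 7575 bp and the share on a start site 23.7%. Measured from the midpoint the distance was 18809 bp. With the start site in the central 500 bp the share was 6.52%. By peak bases the intron share was 49.7%. In the central 500 bp GATC was 4 per kb. The word TTCCCAC had 0.285 per kb, and since it contains TTCCCA it could not be the denser of these words. No paired analysis was possible because the lists are pooled over samples, and for the same reason no replicate could be left out. The k-means clustering could not be repeated, since the files used here hold no binding intensity, and the nearest gene depends on which annotated genes are used.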
